A study of Populus tomentosa with 15 samples.

Results

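The cells described here are Populus tomentosa suspension cells that overexpress PtomitAPX, a mitochondrial ascorbate peroxidase, and that were given 10 mM H2O2 for 3 h (OX-H). They were compared with untreated wild-type cells (WT). Of the 15 RNA-seq libraries of the series, 6 enter this comparison, 3 of OX-H and 3 of WT, and 23333 of the 42635 features listed were tested, those that reached 1 FPKM in 3 or more of these 6 libraries. FPKM is the number of reads on a gene scaled to the length of the gene and the reads of its library. The 3 libraries of untreated PtomitAPX-overexpressing cells (OX) are given beside them where the path from WT to OX-H matters, and the other 6 libraries, of an antisense line with and without ascorbate, entered only the estimate of the spread. All cells grew in the dark at 25 °C in shaken liquid medium and were collected 5 days after subculture. The transgene was driven by the 35S promoter, which is active in most plant cells, and by the study's account the overexpressing cells needed the cytokinin 6-BA in the medium to grow. No library analysed here came from WT cells with H2O2 or from a mock treatment, so that transgene, medium and peroxide cannot be told apart in OX-H against WT. How many independent transgenic lines stand behind the OX and OX-H libraries is not stated in these sources.

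Ascorbate peroxidases use ascorbate to reduce H2O2 to water, and the mitochondrial form acts beside the respiratory chain, which releases H2O2 as a by-product. At low levels H2O2 is also a signal that changes the expression of nuclear genes, and at high levels it damages proteins, lipids and DNA. Plant cells answer an excess of oxidants with glutathione transferases, which couple toxic compounds to glutathione, with secreted peroxidases, which use H2O2 to cross-link the cell wall, and with chaperones. The comparison asks how far the transcripts of cells with the PtomitAPX transgene lie from those of WT once peroxide has been supplied from outside.

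The WT libraries held 19517849 to 21278437 reads on genes, the OX libraries 17509951 to 19349363 and the OX-H libraries 15618191 to 17889817, as worked back from the steps between low FPKM values. Replicate libraries of these groups correlated at 0.992 to 0.994 across genes on the log2(FPKM + 1) scale. The labels do not say whether the 3 libraries of a group came from separate cultures, so the p-values measure only the spread between these libraries, which may be technical. The identifiers are not paired here with PtomitAPX or with gene symbols, so the level of the transgene and the identity of the cells by marker genes were not analysed here. The functions given below are the GO terms, or the names, that the study attached to its identifiers. In RNA of whole cultures, fewer cells of a type and less RNA per cell cannot be told apart.

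In OX-H cells, 984 genes were raised and 591 lowered against WT, which is 4.22% and 2.53% of the 23333 genes tested and together 6.75%. A gene was called when its adjusted p in limma, over all genes tested, was below 0.001 and its log2 fold change was above 1.5 in size. Fold changes are on the log2(FPKM + 1) scale throughout and understate the change of genes with low FPKM. The median log2 fold change was 2.05 for the raised and -1.92 for the lowered genes, beside -0.11 for all genes tested, and the median standard error of the called genes was 0.13. The fold threshold set the count, because an adjusted p below 0.001 alone was met by 11806 genes, 50.6% of those tested. In all 984 raised genes and in 590 of the 591 lowered genes the 3 OX-H libraries did not overlap the 3 WT libraries, but this was so, with OX-H above, for 32.1% and, with OX-H below, for 43.8% of all genes tested.

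Among genes with a WT level over 10 FPKM, more were lowered than raised, but the WT level is also part of the fold change. Sorting genes by it can tilt the higher levels towards lowered genes, so this balance is not read. With a minimum of 5 FPKM in 3 or more of the 6 libraries, 790 genes were raised and 482 lowered. Of the 1532 genes with a mean WT level over 100 FPKM, 27 were raised and 83 lowered, and between 10 and 100 FPKM 235 were raised and 294 lowered of 9890. Between 1 and 10 FPKM 390 were raised and 214 lowered of 10898, but on this scale a gene with a WT level under 1.83 FPKM cannot pass the fold threshold as lowered, so this balance is partly set by the scale and is not read. A further 332 raised genes had a mean WT level under 1 FPKM, and such genes entered the test largely through their level in OX-H, so their share is not read. In the plot of OX-H against WT levels the called genes stand off the diagonal over the whole range.

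**Figure D1:**
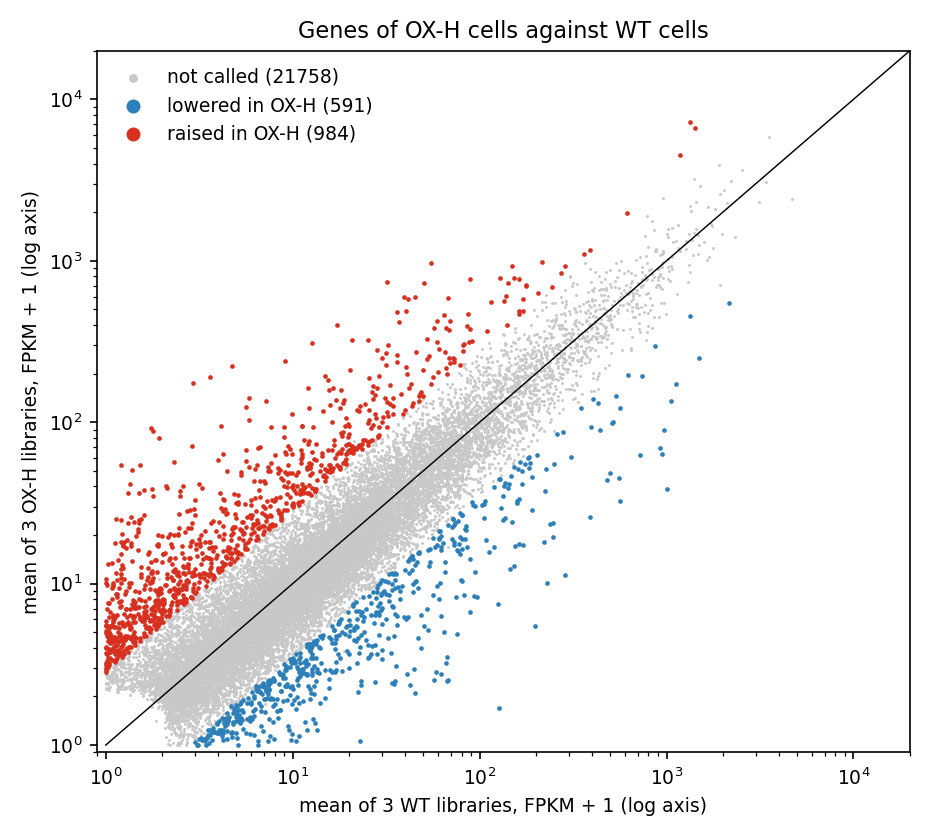
Mean FPKM + 1 of the 3 OX-H libraries against that of the 3 WT libraries, 1 point per gene, both axes logarithmic, with the line of equal levels. The 984 raised genes are red and the 591 lowered genes blue, and 21758 genes were not called.

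The share of reads on the called genes differed between the groups. The raised genes held 1.61% to 1.69% of all reads in the WT libraries, 4.26% to 4.38% in OX and 7.71% to 8.11% in OX-H. The lowered genes held 4.44% to 4.82% in WT, 3.57% to 3.76% in OX and 0.873% to 0.906% in OX-H. The genes were chosen by their difference between OX-H and WT, so these shares describe its size. For the raised genes the median log2 fold change was 1.39 between OX and WT and 0.85 between OX-H and OX, 2 comparisons that share the OX libraries. For the lowered genes these medians were -1.53 and -0.39, with wide interquartile ranges of -2.40 to 0.13 and of -2.26 to 0.34, so that for some lowered genes most of the difference lay between WT and OX and for others between OX and OX-H.

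The largest rise of all genes was that of POPTR_0013s14410, which no source used here annotates. It was at 3.55, 0.522 and 1.71 FPKM in the WT libraries, at 40.2, 47.2 and 19.5 in OX and at 153, 186 and 181 in OX-H. The groups did not overlap, and the log2 fold change of OX-H against WT was 6.03, SE 0.42, adjusted p = 3.54e-09 (limma). POPTR_0005s01660, with an oxidation-reduction term, was at 0.386, 1.08 and 0.745 FPKM in WT, 54.5, 59.8 and 79.0 in OX and 83.5, 98.1 and 93.1 in OX-H. All 3 OX-H libraries were far above all WT libraries (log2 fold change 5.75, SE 0.17, adjusted p = 2.47e-13), and the OX libraries lay between them. POPTR_0056s00260, an oxidoreductase, was at 0.937, 0.437 and 1.39 FPKM in WT and 76.1, 84.2 and 74.8 in OX-H, without overlap (log2 fold change 5.40, SE 0.21, adjusted p = 5.17e-12).

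Among the 6 largest rises of annotated genes, 3 carried terms of multicellular organism processes and had identifiers numbered close to each other. POPTR_0007s03370 was at 1.02, 0.656 and 0.715 FPKM in WT, 53.2, 63.5 and 60.6 in OX and 78.6, 96.1 and 87.3 in OX-H. POPTR_0007s03340 was at 0.398, 0.0742 and 0.162 FPKM in WT, 39.3, 50.3 and 51.4 in OX and 51.1, 54.8 and 53.7 in OX-H. POPTR_0007s03420 was at 0.635, 0.370 and 0.565 FPKM in WT, 31.0, 33.7 and 29.4 in OX and 50.6, 58.9 and 50.4 in OX-H. All 3 genes were close to absent in WT and far higher in every OX and OX-H library, and their log2 fold changes against WT were 5.62, 5.49 and 5.16 (adjusted p = 7.34e-14, 8.89e-14 and 1.18e-13, limma). Whether they share reads as near-identical copies was not tested, since the sources do not say how reads with several matches were counted.

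The largest falls of all genes were those of POPTR_0014s04770 and POPTR_0254s00230, both without annotation. POPTR_0014s04770 was at 122, 127 and 131 FPKM in WT, 0.966, 0.761 and 0.551 in OX and 1.2, 0.470 and 0.447 in OX-H. It was almost absent from both OX and OX-H libraries (log2 fold change of OX-H against WT -6.25, SE 0.13, adjusted p = 7.28e-15). POPTR_0254s00230 was at 178, 202 and 208 FPKM in WT, 45.2, 32.5 and 38.8 in OX and 4.72, 4.07 and 4.63 in OX-H. Its 3 groups did not overlap and stood in that order, with a log2 fold change of -5.17, SE 0.11, adjusted p = 1e-14 against WT and of -2.85 against OX.

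Of the 6 largest falls of annotated genes, POPTR_0008s15120 is annotated to polyamine biosynthesis, polyamines being small cations needed for growth. It was at 67.6, 63.3 and 68.8 FPKM in WT, 1.27, 1.11 and 0.965 in OX and 2.01, 0.965 and 1.63 in OX-H. The OX and OX-H libraries overlapped each other and lay far below WT (log2 fold change of OX-H against WT -4.76, SE 0.13, adjusted p = 1.59e-13). The other falls in this group were 2 glutathione transferases, 2 quercetin glucosyltransferases and 1 photosynthesis gene, which are described with their lists. The plot of the named genes by library shows the 3 courses side by side.

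**Figure D2:**
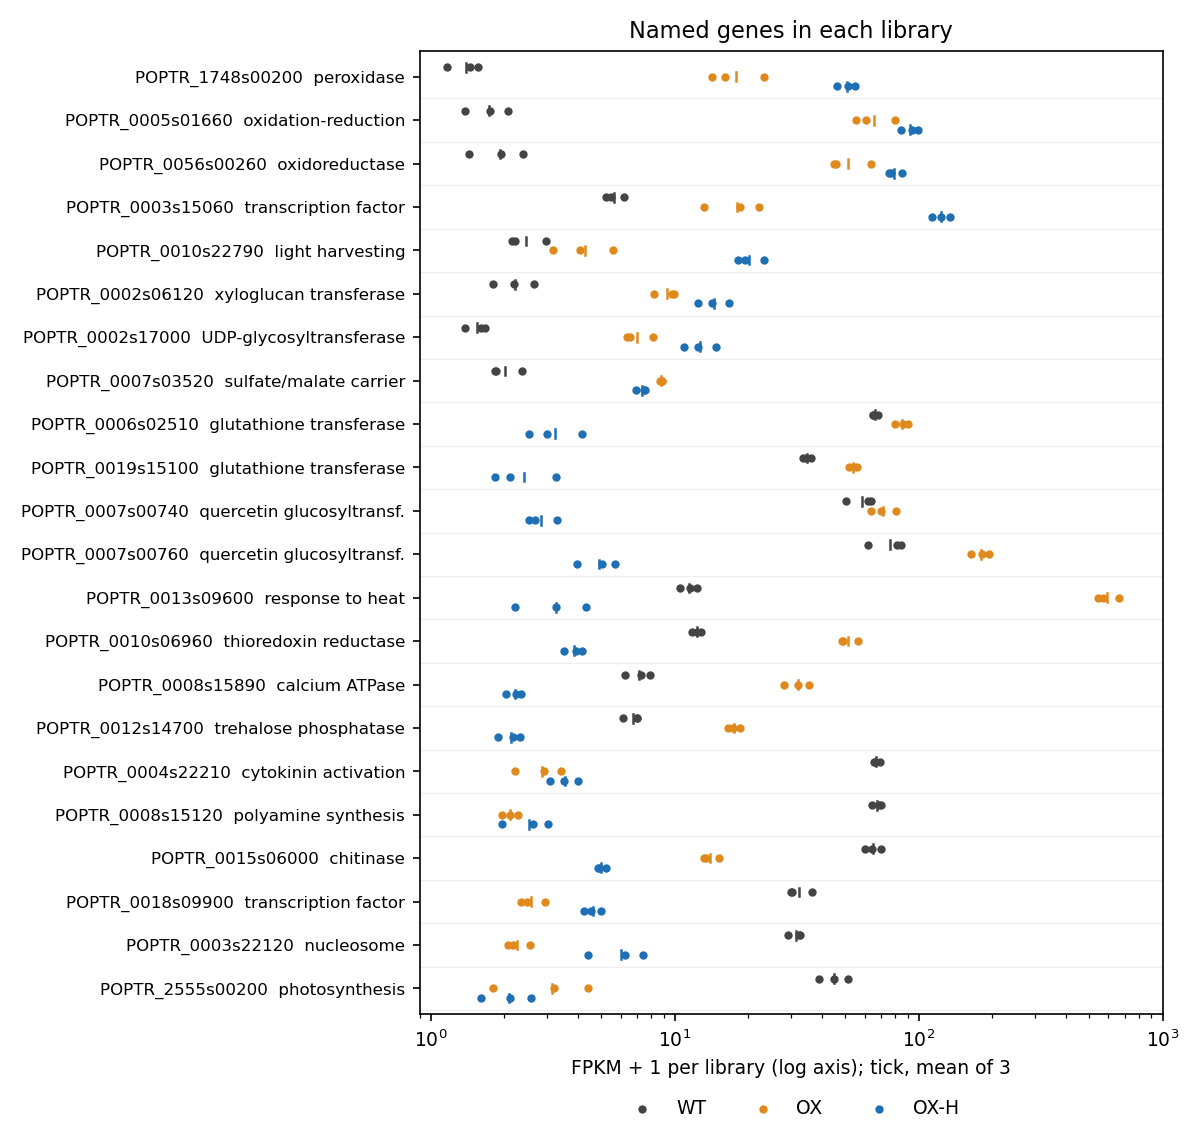
FPKM + 1 of 22 named genes in each WT, OX and OX-H library (logarithmic axis), with a tick at the mean of each group of 3. The genes in the upper part are higher in OX-H than in WT, those in the middle are at or above WT in OX and below it in OX-H, and those in the lower part are below WT in both OX and OX-H.

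The gene lists used below are GO terms, with members as the study annotated them in its enrichment of genes that had changed in its antisense line or in OX. The study chose these members on libraries of this series, for OX with the OX-H values in view, so that no list is independent evidence of its direction. A member that passed the filter only through its OX-H level had to differ, so counts over tested members describe them and show nothing on their own. Each count of called genes is set against the 4.22% raised, 2.53% lowered and median of -0.11 over all genes tested. Wording such as mostly below WT is to be read beside all genes tested, of which 13259 lay below WT in OX-H and 10074 above. Counts at an unadjusted p below 0.05 have no such share beside them. An adjusted p below 0.001 alone was already met by 50.6% of all genes tested, so those counts are not read as particular to a list. For OX-H against OX 8.03% of all genes were called (3.14% raised and 4.89% lowered), and for OX against WT 11.6% (6.31% raised and 5.33% lowered).

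Of the peroxidase and oxidative-stress genes that passed the filter, most were higher in OX-H cells than in WT. Of 33 genes with a peroxidase term 20 were tested, of which 11 were raised and 9 not called, and the median log2 fold change was 2.53, or 0.85 without the filter on low values, which left out 13 members. Of 17 with the term response to oxidative stress 15 were tested and 13 raised, with a median of 2.70, and 12 of the 15 are also on the peroxidase list. In OX against WT, 12 of the 20 peroxidases were already raised and 1 lowered. In OX-H against OX 2 were raised and 3 lowered, with a median of -0.02. Of the 15 oxidative-stress genes 10 were raised in OX against WT, and 3 were raised and 0 lowered in OX-H against OX. All 11 raised peroxidases had been listed by the study for OX, and the 2 listed for the antisense line were not called, at log2 fold changes of -1.02 and -0.80. POPTR_1748s00200, a heme peroxidase with a cell wall organization term, was at 0.158, 0.443 and 0.564 FPKM in WT, 13.3, 15.1 and 22.3 in OX and 50.1, 53.6 and 45.3 in OX-H. The OX-H libraries lay above OX, and OX above WT, without overlap (log2 fold change of OX-H against WT 5.20, SE 0.15, adjusted p = 2.7e-13, and against OX 1.53, SE 0.15, adjusted p = 2.32e-07). The 20 peroxidases summed to 559.5 to 587 FPKM per library in WT, 1785 to 1868 in OX and 1044 to 1140.3 in OX-H. The 11 raised members had WT means of 0.0963 to 16 FPKM and OX-H means of 5.41 to 136, whereas the sum in OX was led by POPTR_0001s09270, picked after its values had been seen, at 650.4 FPKM there, 86.0 FPKM in WT and 142 in OX-H on average. Likewise picked afterwards, POPTR_0008s02330 and POPTR_0008s02340 had nearly equal means in all 3 groups, and whether their reads can be told apart was not tested.

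The term hydrogen peroxide catabolism divided into 2 blocks. Of 23 members 22 were tested, 9 were raised and 13 not called, and 12 of the 22 are peroxidases of the list above. The raised members had WT means between 0.0963 and 5.24 FPKM. The most abundant member in WT, POPTR_0013s08130, picked after its values had been seen, was at 1926 FPKM in WT and 706 in OX-H on average, a log2 fold change of -1.45, which did not reach the fold threshold. Summed over members, the level was 4093 to 4156 FPKM in WT, 1024 to 1245 in OX and 2610.4 to 2691 in OX-H. The list's median of -0.05 changed to 0.04 when library medians were aligned or no filter was set, so no direction is given for it as a whole.

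Most tested glutathione transferases were lower in OX-H than in both OX and WT. Of 24 members 20 were tested, 12 were lowered against WT and 8 not called, with a median of -1.79. The list is shortened in the copy used here. Against OX, 15 of the 20 were lowered, and between WT and OX 9 were raised. POPTR_0006s02510 was at 63.7, 67.3 and 64.0 FPKM in WT, 89.1, 78.6 and 85.0 in OX and 3.16, 1.51 and 2.01 in OX-H. Its OX-H libraries were at a small part of the level of every other library (log2 fold change -4.39, SE 0.12, adjusted p = 1.18e-13). POPTR_0019s15100 was at 33.5, 32.5 and 35.2 FPKM in WT, 50.8, 53.2 and 55.0 in OX and 2.27, 0.832 and 1.11 in OX-H. The order was OX, WT, OX-H, without overlap (log2 fold change of OX-H against WT -3.90, SE 0.14, adjusted p = 2.49e-12). The list summed to 1157 to 1281 FPKM per library in WT, 4055 to 4213 in OX and 683 to 709.8 in OX-H. Left out in turn, WT replicate 2, OX-H replicate 1 and OX-H replicate 3 each gave 11 lowered members and the other libraries 12.

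A pair of flavonoid glucosyltransferases were also lowest in OX-H. POPTR_0007s00740, annotated as a quercetin 3-O-glucosyltransferase, an enzyme that attaches glucose to a flavonol, was at 49.3, 62.5 and 61.1 FPKM in WT, 68.9, 62.9 and 79.5 in OX and 1.53, 1.67 and 2.29 in OX-H. OX lay just above WT, and OX-H far below both (log2 fold change against WT -4.37, SE 0.11, adjusted p = 3.49e-14). POPTR_0007s00760, with the same term, was at 60.8, 80.6 and 83.5 FPKM in WT, 181, 163 and 193 in OX and 2.99, 4.04 and 4.67 in OX-H. It was highest in OX and lowest in OX-H, at a log2 fold change of -3.96 against WT and -5.21 against OX (adjusted p = 1.53e-12 against WT, limma). The list of UDP-glycosyltransferases, which the copy used here also shortens, does not hold this pair. Of its 62 genes 42 were tested, of which 11 were raised, 1 lowered and 30 not called, with a median of 0.65, or 0.22 without the filter. With voom, and with a pseudocount of 0.1, 19 were raised and 3 lowered, and with a minimum of 5 FPKM 6 were raised. In OX against WT 22 of the 42 were raised and 1 lowered, and in OX-H against OX 0 were raised and 16 lowered. The list summed to 281 to 302 FPKM in WT, 1486 to 1661 in OX and 325 to 329 in OX-H. POPTR_0002s17000 was at 0.380, 0.659 and 0.608 FPKM in WT, 5.52, 5.39 and 7.11 in OX and 9.95, 11.4 and 13.8 in OX-H. The groups did not overlap (log2 fold change of OX-H against WT 3.03, SE 0.13, adjusted p = 1.26e-11). The lowered member, POPTR_0013s00730, was at 1.47, 2.38 and 2.2 FPKM in WT and 0.0889, 0.0408 and 0 in OX-H (log2 fold change -1.52, SE 0.15, adjusted p = 1.58e-07). Its call was lost without WT replicate 2, WT replicate 3 or OX-H replicate 3, at log2 fold changes of -1.43, -1.47 and -1.49, and with aligned medians or quantile normalization, at -1.43 and -1.46.

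Most genes of the thiol redox system differed from WT by less than the fold threshold. Of 30 genes with the term cell redox homeostasis 23 were tested, of which 2 were raised, 2 lowered and 19 not called, while 21 had an unadjusted p below 0.05, 12 of them above WT and 9 below. The list's sum was 1142 to 1209 FPKM in WT, 4610.5 to 4685 in OX and 1466 to 1495 in OX-H, without overlap. POPTR_0007s01400, an oxidoreductase acting on sulfur groups, was at 0.701, 0.762 and 1.01 FPKM in WT, 14.9, 16.8 and 21.4 in OX and 6.38, 7.76 and 6.41 in OX-H. OX-H stood between WT and OX, without overlap (log2 fold change against WT 2.10, SE 0.14, adjusted p = 2.11e-09). POPTR_0010s06960, a thioredoxin-disulfide reductase, was at 10.7, 11.4 and 11.8 FPKM in WT, 47.3, 48.1 and 55.3 in OX and 3.17, 2.94 and 2.53 in OX-H. It was highest in OX and lowest in OX-H (log2 fold change against WT -1.67, SE 0.09, adjusted p = 1.23e-10, and against OX -3.72, SE 0.09, adjusted p = 3.71e-15). The other called members, named after their values had been seen, were POPTR_0006s24340 (raised, 1.78) and POPTR_0010s07000 (lowered, -1.57), a thioredoxin-disulfide reductase that lost its call without WT replicate 3 and with aligned medians. Among thioredoxin-disulfide reductases, which keep thioredoxin reduced, 7 of 15 genes were tested, the 2 lowered ones were those named, and the median was -0.67, with 1 lowered in each of the same alternatives. All 7 had an unadjusted p below 0.05, 2 above WT and 5 below. Their sum went the other way from the median, at 612 to 698 FPKM in WT, 2457 to 2597 in OX and 841 to 887 in OX-H.

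Most chaperone genes, which had been high in OX, were below WT in OX-H by less than the fold threshold. Of 20 genes with the term unfolded protein binding limma called 0 of 19 tested, and voom 1, though 18 had an unadjusted p below 0.05, 17 of them below WT. The median was -0.83, and the sums were 970.3 to 994 FPKM in WT, 3290.4 to 3978 in OX and 555 to 563 in OX-H. Without OX-H replicate 3, 1 member was lowered. Against OX, 16 of the 19 were lowered. Of 8 genes with a heat response term 1 was lowered and 7 not called, with a median of -0.51. The lowered gene, POPTR_0013s09600, was at 11.3, 10.6 and 9.54 FPKM in WT, 571, 545 and 661 in OX and 3.34, 2.27 and 1.21 in OX-H. It was far higher in OX than in the other groups, and peroxide-treated cells held less of it than WT (log2 fold change -1.86, SE 0.17, adjusted p = 1.04e-07, and against OX -7.55, SE 0.17, adjusted p = 3.1e-15).

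Genes of the response to endoplasmic reticulum stress were mostly above WT in OX-H. Of 12 members 11 were tested, limma and voom called 0, 9 had an unadjusted p below 0.05, of which 8 were above WT, and the median was 0.59. They summed to 1531 to 1600.5 FPKM in WT, 6313 to 6728 in OX and 2709 to 2935 in OX-H, so that OX-H lay between the other groups. The plot of single members by group sets side by side the peroxidases, the glutathione transferases and the chaperones.

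**Figure D3:**
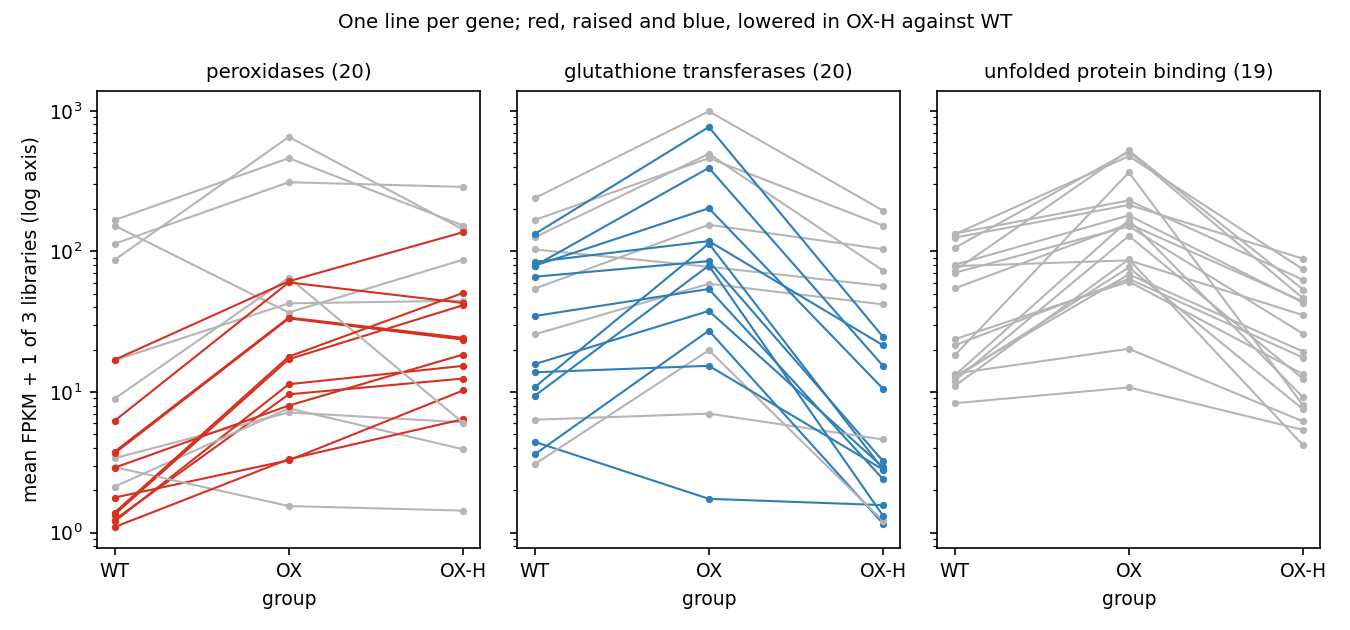
Mean FPKM + 1 in WT, OX and OX-H (logarithmic axis), 1 line per tested gene, for 20 peroxidases, 20 glutathione transferases and 19 genes of unfolded protein binding. Of the peroxidases 11 are raised in OX-H against WT (red), of the glutathione transferases 12 are lowered (blue), and no chaperone gene is called (grey).

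A calcium pump and a trehalose enzyme were also high in OX and lowered in OX-H. Calcium-transporting ATPases remove calcium from the cytosol after a signal, and 1 of 7 tested of 11 was lowered, with a median of -1.0. POPTR_0008s15890 was at 5.23, 6.93 and 6.29 FPKM in WT, 30.9, 27.1 and 34.6 in OX and 1.24, 1.03 and 1.34 in OX-H. The 3 groups did not overlap (log2 fold change of OX-H against WT -1.69, SE 0.11, adjusted p = 2.52e-09). The count was 3 without WT replicate 1 or OX-H replicate 3, 2 without WT replicate 3 or OX-H replicate 1, and 5 with voom on whole reads. In trehalose biosynthesis 1 of 5 tested of 8 was lowered, with a median of -0.28. POPTR_0012s14700, a trehalose phosphatase, was at 5.12, 6.02 and 6.0 FPKM in WT, 16.3, 15.5 and 17.5 in OX and 1.31, 0.885 and 1.17 in OX-H, again lowest with peroxide (log2 fold change against WT -1.66, SE 0.09, adjusted p = 1.38e-10).

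Alternative oxidases and genes of the mitochondrial intermembrane space and of iron-sulfur cluster assembly stayed within the fold threshold of WT. The alternative oxidases, which pass electrons from ubiquinone to oxygen without pumping protons, had 0 calls among 3 genes by limma and by voom, with 2 at an unadjusted p below 0.05. POPTR_0003s10290 was at 3.11, 5.42 and 4.77 FPKM in WT, 49.3, 47.4 and 53.8 in OX and 1.38, 1.97 and 1.83 in OX-H. It was highest in OX, and OX-H lay below WT by a log2 fold change of -0.98, SE 0.18, adjusted p = 0.000141. POPTR_0015s02150 was at 11.8, 13.2 and 12.5 FPKM in WT, 37.6, 36.4 and 42.0 in OX and 7.84, 7.44 and 8.62 in OX-H (-0.59 against WT). For POPTR_0011s00890 OX-H overlapped WT, at 8.66, 7.32 and 8.38 against 7.49, 8.97 and 7.76 FPKM (log2 fold change 0.01, SE 0.09, adjusted p = 0.936).

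The 4 genes of the intermembrane space, 3 of which carry the term electron transport from cytochrome c to oxygen, had 0 calls by limma and by voom, with 4 at an unadjusted p below 0.05, and the medians of the 4 and of the 3 were 0.75 and 0.93. POPTR_0013s10300 was at 168, 164 and 144 FPKM in WT, 502, 522 and 548 in OX and 322, 323 and 329 in OX-H. Its OX-H libraries lay above WT and below OX, at a log2 fold change of 1.03, SE 0.06, adjusted p = 6.18e-10, under the fold threshold. POPTR_0019s10470 and POPTR_1028s00200 stood in the same order, with log2 fold changes of 0.57 and 0.93. POPTR_0005s22080, with an iron-sulfur cluster assembly term, was at 50.0, 46.8 and 51.2 FPKM in WT and 45.9, 44.1 and 44.8 in OX-H (-0.13). It is 1 of 7 genes of that assembly, of which limma and voom called 0, with 5 at an unadjusted p below 0.05 and a median of 0.01.

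The 3 genes tested of 4 with the term NADH dehydrogenase (ubiquinone) were low in OX-H and already in OX, and the terms of the 2 that were lowered also place them in the chloroplast thylakoid. They summed to 5.54 to 8.31 FPKM in WT, 0.860 to 1.23 in OX and 0.342 to 0.760 in OX-H, and none was called between OX-H and OX (adjusted p = 0.108 to 0.935, limma). POPTR_0011s02220 was at 2.13, 2.88 and 4.58 FPKM in WT, 0.487, 0.403 and 0.243 in OX and 0, 0 and 0.395 in OX-H (log2 fold change -1.87, SE 0.25, adjusted p = 7.7e-06). POPTR_0018s08070 was at 1.42, 2.49 and 2.35 FPKM in WT, 0.366, 0 and 0.548 in OX and listed at 0 in all OX-H libraries, from 36 reads in WT, which makes it at least 10.0-fold lower against a floor of 3 reads over the group. POPTR_0008s17790, which has no plastid term, was at 1.98, 2.15 and 1.38 FPKM in WT, 0.376, 0.457 and 0.226 in OX and 0.373, 0.342 and 0.366 in OX-H (log2 fold change -1.05, SE 0.12, adjusted p = 8.42e-07), and was called with a pseudocount of 0.1, at -2.05, and with voom, at -2.27.

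Photosynthesis genes went both ways, and the cells grew in the dark. Of 22 members 17 were tested, 5 raised, 6 lowered and 6 not called, and the median of 0.47 became -0.54 without the filter on low values. With a minimum of 5 FPKM 2 were lowered. Among the raised genes POPTR_0010s22790, a chlorophyll-binding protein of light harvesting, was at 1.97, 1.21 and 1.16 FPKM in WT, 3.09, 4.58 and 2.18 in OX and 18.4, 22.1 and 17.1 in OX-H. Peroxide-treated cells held more of it than either other group (log2 fold change against WT 3.06, SE 0.18, adjusted p = 5.76e-10, and against OX 2.27, SE 0.18, adjusted p = 1.43e-08). The other raised members, named after their values had been seen, were POPTR_0015s07340 (2.10) and POPTR_0003s17010 (1.85) with a light-harvesting term, POPTR_0002s25510 (1.94) with a photosystem I term and POPTR_0007s12070 (2.01) with a photosystem II term. Among the lowered genes POPTR_2555s00200, with the term chloroplast part, was at 38.1, 44.1 and 50.3 FPKM in WT, 3.40, 0.804 and 2.18 in OX and 0.601, 1.10 and 1.57 in OX-H. It was low in OX as well as in OX-H (log2 fold change of OX-H against WT -4.45, SE 0.24, adjusted p = 1.92e-10). The 5 other lowered members had WT means of 2.09 to 8.61 FPKM and OX-H means of 0 to 0.752. Together the list summed to 182 to 201 FPKM in WT, 47.4 to 68.0 in OX and 244 to 272 in OX-H.

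In the plot of log2 fold changes by list, the members of most lists lie within the fold threshold, and each list has its own spread of values.

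**Figure D4:**
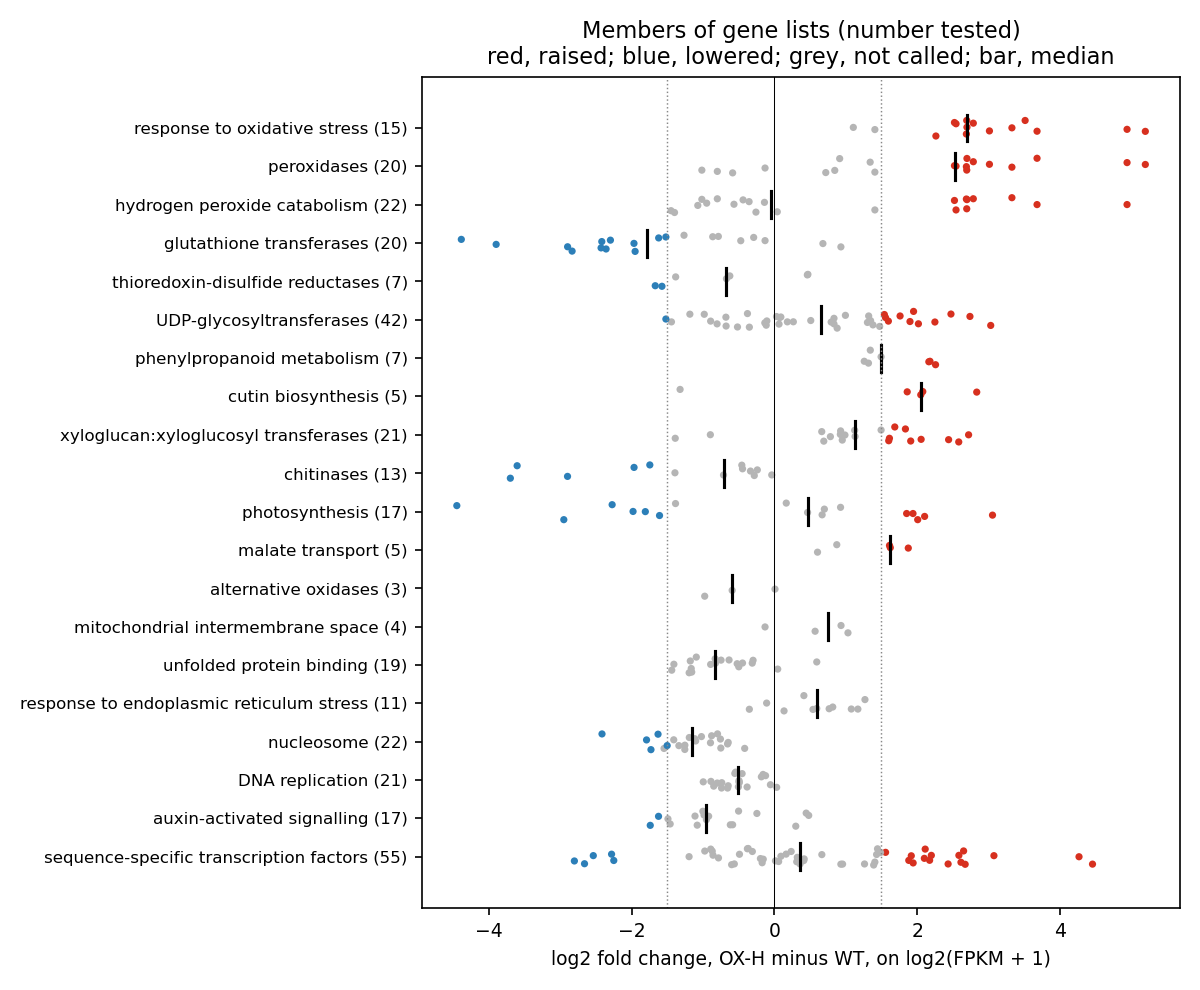
Log2 fold change of OX-H against WT for the tested members of 20 gene lists, 1 point per gene, with the number tested in brackets, a bar at the median and dotted lines at the fold threshold of 1.5. Raised genes are red, lowered genes blue and genes not called grey. Oxidative-stress genes lie to the right (median 2.70), glutathione transferases to the left (median -1.79), and photosynthesis genes on both sides.

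Cell wall genes divided by enzyme. Xyloglucan:xyloglucosyl transferases, which cut and rejoin xyloglucan chains and so loosen or strengthen the growing wall, had 21 of 25 members tested, of which 9 were raised and 12 not called, with a median of 1.13. Of the 16 tested members that the study had listed for the antisense line, 5 were raised. POPTR_0002s06120 was at 1.64, 1.19 and 0.789 FPKM in WT, 8.71, 7.19 and 8.94 in OX and 11.5, 13.3 and 15.7 in OX-H. The OX-H libraries were the highest (log2 fold change against WT 2.72, SE 0.14, adjusted p = 7.98e-11). The list summed to 618 to 658 FPKM in WT, 971 to 1124 in OX and 2227 to 2282 in OX-H. The 2 most abundant members in OX-H, picked after their values had been seen, were POPTR_0013s14860, at 286 FPKM in WT and 923 in OX-H, and POPTR_0019s14590, at 135 FPKM in WT and 562 in OX-H. Without WT replicate 1, 1 member of the list was lowered.

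Chitinases, which cut chitin of fungal walls and related glycans, had 5 of 13 members lowered and 8 not called, with a median of -0.71. POPTR_0015s06000 was at 63.1, 69.3 and 59.3 FPKM in WT, 12.4, 12.2 and 14.1 in OX and 3.90, 4.21 and 3.85 in OX-H. The groups did not overlap, and OX-H was the lowest (log2 fold change against WT -3.70, SE 0.07, adjusted p = 1.25e-15). The other lowered members, named after their values had been seen, were POPTR_0015s05990 (-3.60), POPTR_0012s01160 (-2.90), POPTR_0004s18870 (-1.97) and POPTR_0019s12360 (-1.75). POPTR_0004s18870 was the most abundant, at 2149.9 FPKM in WT and 549.6 in OX-H on average. The list summed to 3485 to 3730.5 FPKM in WT, 634 to 796 in OX and 1413 to 1525 in OX-H.

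Lists of secondary metabolism and transport contained raised members. Of 9 genes of phenylpropanoid metabolism, the route to lignin and flavonoids, 7 were tested, 3 were raised and 4 not called, with a median of 1.5. With pseudocounts of 0.5 and 0.1 the count was 6 and 7, and the WT means were 0.0230 to 2.27 FPKM. The list summed to 4.72 to 4.88 FPKM in WT, 29.0 to 34.6 in OX and 30.3 to 31.4 in OX-H. In OX-H against OX 0 were raised and 0 lowered, with a median of -0.07. POPTR_0004s19580 was at 0.245, 0.152 and 0.249 FPKM in WT, 1.90, 2.46 and 2.73 in OX and 4.56, 4.6 and 5.31 in OX-H, in rising order without overlap (log2 fold change of OX-H against WT 2.26, SE 0.11, adjusted p = 7.77e-11). Of 6 genes of cutin biosynthesis, the polyester of the plant surface, 5 were tested and 4 raised, from WT means of 0.0525 to 0.549 FPKM to OX-H means of 2.83 to 10.0. With WT means under 1 FPKM they entered the test largely through their level in OX-H, so this count is not read. These 4, named after their values had been seen, were POPTR_0009s11300 (2.83), POPTR_0008s05840 (2.08), POPTR_0010s20880 (2.05) and POPTR_0006s09900 (1.86). The remaining member tested, POPTR_0014s08130, was lower in OX-H, at 48.6 FPKM in WT and 18.8 in OX-H (-1.32), under the fold threshold, and being the most abundant it set the sum of the list, at 45.7 to 51.4 FPKM in WT, 19.7 to 23.6 in OX and 37.8 to 39.9 in OX-H. With a minimum of 5 FPKM 1 member was raised. Among 7 genes tested of 9 in sulfate transport 3 were raised, and the same 3 were the raised genes of malate transport (5 tested of 8) and of phosphate ion transport (6 tested of 7). POPTR_0007s03520, annotated as a carrier of sulfate, malate and succinate among other anions, was at 0.832, 1.36 and 0.846 FPKM in WT, 7.69, 7.90 and 7.84 in OX and 5.95, 6.49 and 6.58 in OX-H. It was higher than WT in both OX and OX-H (log2 fold change of OX-H against WT 1.88, SE 0.12, adjusted p = 1.21e-09). The others, named after their values had been seen, were POPTR_0017s07510 (1.61) and POPTR_0017s07270 (1.62).

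Genes of cell division were mostly below WT in OX-H. Nucleosome genes, among them those of histones, had 5 of 22 members lowered, all of them tested, and 17 not called, and all 22 had an unadjusted p below 0.05 with OX-H below WT. The median was -1.15, and the sums were 2895 to 3095 FPKM in WT, 652 to 658 in OX and 1407 to 1453 in OX-H. POPTR_0003s22120 was at 31.7, 31.4 and 28.1 FPKM in WT, 1.16, 1.07 and 1.55 in OX and 5.27, 3.40 and 6.37 in OX-H. OX-H lay between OX and WT, without overlap (log2 fold change against WT -2.42, SE 0.15, adjusted p = 7.05e-10). The other lowered members, named after their values had been seen, were POPTR_0007s13930 (-1.79), POPTR_0005s14680 (-1.73), POPTR_0005s11860 (-1.63) and POPTR_0007s14020 (-1.5), and the count was 4 without WT replicate 2.

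Among 21 genes of DNA replication limma and voom called 0, with 17 at an unadjusted p below 0.05, and the median was -0.50. They include the 4 genes of the MCM complex, the helicase that opens replication origins. POPTR_0001s12380 was at 15.6, 16.4 and 15.6 FPKM in WT, 3.11, 2.94 and 3.43 in OX and 14.9, 12.1 and 14.7 in OX-H. Its OX-H level was below WT by a log2 fold change of -0.18, SE 0.08, adjusted p = 0.051 and above OX by more than the thresholds (1.84, SE 0.08, adjusted p = 8.06e-12). For POPTR_0004s13660, POPTR_0006s20300 and POPTR_0009s12440 the log2 fold changes against WT were -0.55, -0.16 and -0.50, none past the fold threshold, and limma and voom called 0 of the 4, with 3 at an unadjusted p below 0.05 and a median of -0.34. In auxin-activated signalling 2 of 17 genes tested of 18 were lowered, with a median of -0.95. In OX against WT 12 of the 17 were lowered, and in OX-H against OX 8 were raised and 0 lowered. The list summed to 777 to 807 FPKM in WT, 111 to 119 in OX and 611 to 640 in OX-H, so the gene given next does not stand for the list. POPTR_0002s18750 was at 3.96, 4.17 and 3.91 FPKM in WT, 0.465, 0.898 and 0.465 in OX and 0.647, 0.264 and 0.628 in OX-H, low in both transgenic groups (log2 fold change of OX-H against WT -1.74, SE 0.13, adjusted p = 1.11e-08). The other, named after its values had been seen, was POPTR_0010s12320 (-1.62). The count was 4 without WT replicate 2 and 3 without OX-H replicate 1 or OX-H replicate 2.

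The plot of summed levels by library gives the spread of the 3 libraries of each group, and the 3 groups did not overlap in any of the 10 lists drawn.

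**Figure D5:**
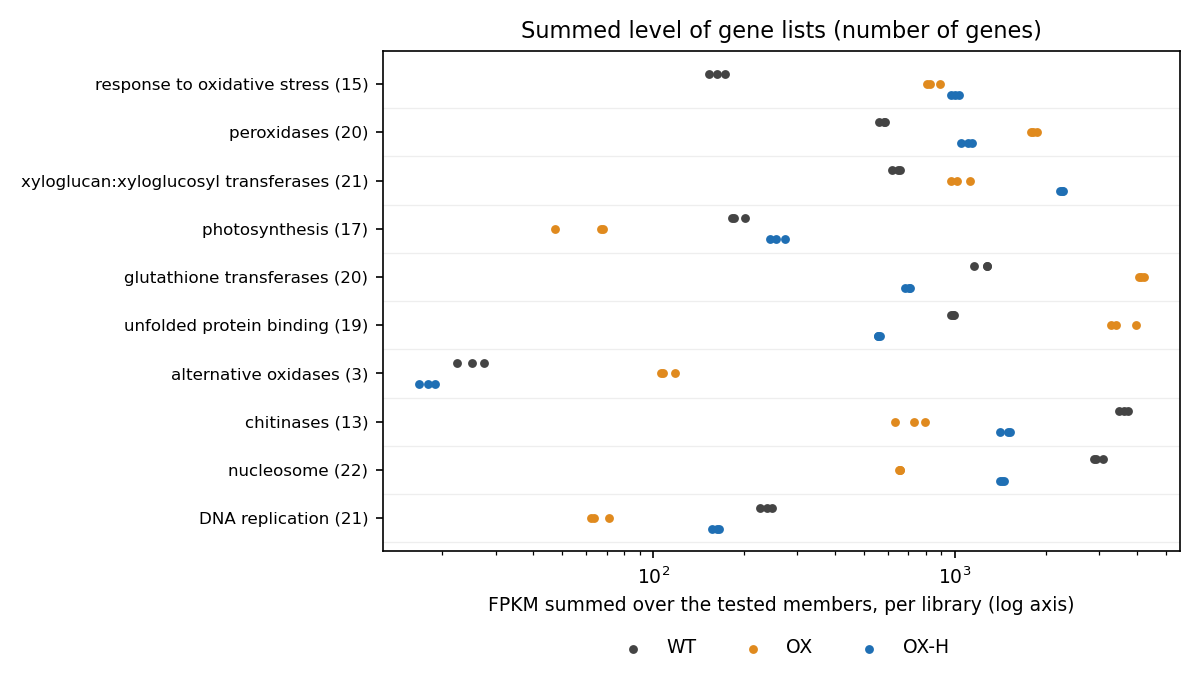
FPKM summed over the tested members of 10 gene lists, 1 point per library (logarithmic axis), with the number of genes in brackets. Glutathione transferases, chaperones (unfolded protein binding) and alternative oxidases are highest in OX and lowest in OX-H, oxidative-stress genes are high in both OX and OX-H, and chitinases, nucleosome and DNA replication genes are highest in WT.

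Sequence-specific transcription factors held both rises and falls. Of 68 members 55 were tested, 16 were raised, 5 lowered and 34 not called, with a median of 0.36. This list is shortened in the copy used here as well. Of the 37 tested members that the study had listed for the antisense line, 2 were raised and 5 lowered, and of the 18 listed for OX alone 14 were raised. POPTR_0003s15060 was at 4.46, 4.24 and 5.20 FPKM in WT, 17.6, 21.2 and 12.2 in OX and 113, 122 and 133 in OX-H. The 3 groups did not overlap, and OX-H was the highest (log2 fold change against WT 4.46, SE 0.18, adjusted p = 9.33e-12, and against OX 2.81, SE 0.18, adjusted p = 1.27e-09). POPTR_0018s09900, which has a development term, was at 35.5, 29.2 and 28.8 FPKM in WT, 1.94, 1.47 and 1.33 in OX and 3.55, 3.26 and 4.0 in OX-H. It was low in OX and remained far below WT in OX-H (log2 fold change -2.80, SE 0.10, adjusted p = 2.75e-12).

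Of the 15 genes that the study names with a role, 2 were lowered in OX-H against WT and 13 not called, and the median log2 fold change was -0.22. The study names some of the 15 for its antisense line and others for OX. It describes the 2 lowered genes as downregulated in the antisense line. POPTR_0004s22210, a cytokinin riboside 5'-monophosphate phosphoribohydrolase, which releases active cytokinin, was at 68.1, 64.6 and 64.9 FPKM in WT, 2.40, 1.22 and 1.92 in OX and 2.08, 2.51 and 3.01 in OX-H. OX-H overlapped OX and stayed far below WT (log2 fold change -4.25, SE 0.14, adjusted p = 8.89e-13). The other 2 genes of this enzyme were low in every group. POPTR_0009s01600 was at 3.64, 3.47 and 4.03 FPKM in WT, 0.332, 0.505 and 1.04 in OX and 1.44, 1.27 and 2.11 in OX-H (log2 fold change -0.87, SE 0.16, adjusted p = 0.000205). For POPTR_0016s09180 the OX-H libraries, at 1.13, 0.130 and 0.555 FPKM, overlapped those of WT, at 1.0, 1.61 and 1.07 (log2 fold change -0.51, SE 0.18, adjusted p = 0.0198).

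The other lowered gene of the 15 was POPTR_0001s05400, which the study names as a UDP-glycosyltransferase but which is not on the list of that term above. It was at 57.0, 54.5 and 54.4 FPKM in WT, 5.89, 5.62 and 5.31 in OX and 18.3, 17.8 and 18.3 in OX-H. OX-H lay between OX and WT (log2 fold change against WT -1.55, SE 0.08, adjusted p = 5.83e-11), and with library medians aligned its log2 fold change of -1.47 was under the threshold. Of the other UDP-glycosyltransferases, POPTR_0003s14230 was at 28.4, 25.7 and 27.5 FPKM in WT and 23.4, 22.4 and 23.7 in OX-H (-0.22, SE 0.05, adjusted p = 0.00202). POPTR_0006s02390 was at 6.49, 5.34 and 5.75 FPKM in WT and 12.2, 12.1 and 14.0 in OX-H (1.01, SE 0.13, adjusted p = 3.89e-06). In POPTR_0009s15190 OX-H was above WT, at 41.9, 40.7 and 39.8 against 29.3, 25.4 and 23.1 FPKM (0.64), and in POPTR_0545s00210 the groups overlapped (0.05).

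The genes of phosphate and energy metabolism among the 15, and a gene that the study relates to leaf senescence, passed the p threshold in part. None passed the fold threshold against WT. The inorganic pyrophosphatase POPTR_0005s01840 was at 57.9, 40.1 and 53.1 FPKM in WT, 25.0, 20.2 and 12.9 in OX and 88.3, 84.3 and 89.1 in OX-H. OX-H was above WT (0.80, SE 0.17, adjusted p = 0.000667) and, past the thresholds, above OX (2.16, SE 0.17, adjusted p = 1.44e-08). The other inorganic pyrophosphatase, POPTR_0006s08250, was at 39.9, 41.2 and 34.7 FPKM in WT, 113, 118 and 131 in OX and 57.6, 56.2 and 54.5 in OX-H, highest in OX (0.53 for OX-H against WT). The senescence-related gene POPTR_0016s05500, an alkaline alpha-galactosidase, was at 40.6, 35.7 and 37.4 FPKM in WT, 14.0, 12.3 and 14.0 in OX and 78.5, 71.4 and 72.9 in OX-H. It rose from OX to OX-H (2.39, SE 0.12, adjusted p = 5.09e-11) and ended above WT by 0.95, under the fold threshold. POPTR_0007s09470, the phosphatase family protein that the study links to oxidative phosphorylation, was at 3.28, 2.86 and 2.58 FPKM in WT and 3.90, 3.24 and 3.47 in OX-H, with overlap (0.22, SE 0.12, adjusted p = 0.103).

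POPTR_0005s15850, a phosphatidylinositol-4-phosphate 5-kinase, was at 89.2, 81.3 and 89.8 FPKM in WT, 8.61, 8.26 and 5.03 in OX and 36.2, 33.1 and 37.2 in OX-H. Peroxide-treated cells held more of it than OX (2.17, SE 0.13, adjusted p = 5.08e-10) and less than WT (-1.27, SE 0.13, adjusted p = 3.79e-07), the latter under the fold threshold. The phosphatases POPTR_0014s08130, which the study also annotates to cutin biosynthesis, and POPTR_0013s14030 were below WT in every OX-H library, at 18.9, 18.4 and 19.2 against 50.2, 45.0 and 50.6 FPKM for the first and 2.0, 1.26 and 1.34 against 3.72, 4.57 and 3.71 for the second. Their log2 fold changes were -1.32 and -0.99, under the fold threshold.

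Of the tested genes, 21 had 0 reads in all 3 WT libraries, and 14 of these were raised. With a floor of 3 reads over the WT group, they were at least 6.0-fold to at least 126-fold higher in OX-H, with a median bound of 43.6-fold. A further 9 genes had 0 reads in all 3 OX-H libraries, of which 5 were lowered, and were at least 8.33-fold to at least 69.7-fold lower than in WT. Genes at 0 in 1 group passed the filter only with 1 FPKM or more in all 3 libraries of the other, so they had to differ. These counts and bounds describe the genes and show nothing on their own.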

How the data were processed

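Total RNA of the 15 libraries was sequenced by Illumina RNA-seq. The submitters' processing notes name TopHat2 2.0.12, Bowtie2 2.2.3 and HTSeq 0.6.1, while the study's methods name SOAPaligner/SOAP2, and the reads were placed on the Populus trichocarpa genome. Neither source says whether strand was used or how reads with several matches were handled. The authors deposited FPKM per gene and library, a read count divided by gene length and by the reads of the library. The tables of the authors' own comparisons, with pooled read counts, fold changes and q-values, were not used.

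Library totals were worked back from the FPKM steps, and each of the 445124 values above 0 then stood within 0.0001 of a whole number of reads. Log2(FPKM + 1) of all 15 libraries was fitted with 1 mean per group in limma 3.58.1 (R 4.3.3, with a mean-variance trend), and p-values were adjusted by Benjamini-Hochberg over the 23333 genes tested. Every adjusted p in the text comes from this fit. Calls needed an adjusted p below 0.001 and a log2 fold change over 1.5 in either direction, the values that the study's methods name for its own test of read counts. Tables were handled in Python 3.11.15. The members and lists were chosen with earlier results of these data known. Named were the 15 genes that the study names with a role, the 2 largest rises and falls of all called genes and the 6 largest of annotated genes without overlap between libraries, and the leading called members of the gene lists, with every tested member of lists of up to 4 genes. Alternatives were other pseudocounts, filters, scalings, thresholds, a fit on the compared libraries, no trend, a replicate block, voom on the worked-back reads and leaving out each library. The labels give no batch. Sequences and gene symbols were not used here, since the identifiers matched none in the reference table.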

Additional observations from a re-analysis of the deposited data

How the results depend on the processing

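The counts of called genes followed the thresholds and the treatment of low values more than the libraries. Against 1575 called genes of OX-H against WT, a log2 fold change above 1 gave 3724 (2017 raised and 1707 lowered), voom on the worked-back reads 2618 (1506 and 1112), and a pseudocount of 0.1 gave 2483, of which 1054 were lowered. In OX-H against OX the pseudocount of 0.1 gave 1303 raised genes. All other alternatives kept the 3 counts of OX-H against WT within 1.5 times, among them no filter (1570 of 32644 genes), a minimum of 5 FPKM (1272 of 16580), aligned library medians (1628) and quantile normalization (1662). Leaving out each library in turn gave 1565 to 1630 called genes. With the replicate number as a block 1575 genes were called (985 raised and 590 lowered). Deviations of equally numbered WT and OX-H libraries correlated at 0.01, 0.02 and 0.05, so the numbers were not read as pairs, although each library correlated best with its own number. No gene called or list count changed its direction under any alternative run, but the medians of hydrogen peroxide catabolism and photosynthesis changed sign, as given with them, and so did those of iron-sulfur cluster assembly, the SNARE complex and the kinase cascade, which were near 0, and of the genes named by the study (0.16 with a minimum of 5 FPKM). Among the genes named by the rule, 6 calls were lost, all of POPTR_0001s05400 and POPTR_0013s00730, and 7 gained, while calls of other list members changed as given with the lists. With a pseudocount of 0.1 the medians grew to 3.40 for phenylpropanoid metabolism, -1.62 for calcium-transporting ATPases, -1.08 for thioredoxin-disulfide reductases, -0.76 for RNA modification and -0.50 for trehalose biosynthesis. The cause was not tested. Depth limited genes with few reads, for which 1 read is a large part of the FPKM, and the pseudocount draws their fold changes towards 0.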

Other observations

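Further gene lists, outside those described above, held up to 3 called genes each, to be read beside the 6.75% called of all genes tested. Of 20 genes annotated to calmodulin binding, the sensing of calcium, 13 were tested and 1 lowered, with a median log2 fold change of -0.45, or -0.14 without the filter on low values. With voom 2 were lowered. The lowered gene, POPTR_0012s05110, named like the others of this section after its values had been seen, was at 17.4 FPKM in WT and 1.90 in OX-H on average (-2.67). In the stress-activated protein kinase cascade 1 of 9 tested genes of 12 was raised, with a median of -0.03. This gene, POPTR_0007s10930, was at 1.63 FPKM in WT and 13.4 in OX-H (2.45) and already at 12.7 in OX. Among 11 tested of 20 endopeptidase inhibitors, which block proteases, 1 was raised and 2 were lowered, with a median of -0.39, or -0.15 without the filter. With a pseudocount of 0.1 none was raised. The raised inhibitor POPTR_0010s08640 was at 1.62 FPKM in WT and 10.7 in OX-H, and the lowered POPTR_0019s02560 was at 25.2 FPKM in WT and 2.65 in OX-H, POPTR_0001s31740 at 10.3 FPKM in WT and 0.867 in OX-H.

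Plant-type cell wall organization had 2 raised and 1 lowered of 17 genes, with a median of -0.44. POPTR_0015s00590 was at 70.6 FPKM in WT and 250.5 in OX-H (1.81) and the peroxidase POPTR_0013s06300 at 0.777 FPKM in WT and 9.26 in OX-H (2.52), while POPTR_0010s21000 was at 152 FPKM in WT and 11.9 in OX-H (-3.57). In the response to salicylic acid 1 of 8 genes was lowered, with a median of -0.46, POPTR_0018s06020 at 6.38 FPKM in WT and 1.06 in OX-H (-1.85), and voom called 2. Limma called 0 of 5 genes each in the responses to jasmonic acid and to gibberellin, 0 of 9 tested of 12 in the SNARE complex, which fuses vesicles with membranes, and 0 of 11 tested of 23 in RNA modification, a list shortened in the copy used here. At an unadjusted p below 0.05 these counts were 4, 4, 7 and 10, and voom called 0, 0, 0 and 1. Their medians were -0.42, -0.49, 0.02 and -0.44.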
